A study of Mus musculus with 10 samples.

Results

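Gap43, Marcks, Marcksl1 and Basp1 encode 4 acidic, membrane-bound proteins that are abundant in growth cones, the motile tips of growing axons. Their rows were taken by gene name from the deposited table of the developing mouse neocortex. All 4 names were found, 1 row each, among 6147 genes, and all 4 were among the 6048 genes tested, which had a mean level of 1 TPM or more. TPM is a gene's share of all transcripts, after division by gene length and on a fixed total per library. Levels can thus be set side by side between genes, as far as the gene lengths used, which are not given, allow.

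Polyadenylated RNA of neocortex, the layered outer part of the forebrain, was sequenced at 5 stages: embryonic days E12.5, E14, E15.5 and E17, and the day of birth, P0. All 10 libraries came from frozen tissue of CD1 wild type mice, an outbred laboratory strain, with no treatment or genetic change named, so the groups differed by stage alone as far as the labels say. Each stage had 2 libraries, which the series calls biological duplicates. The labels do not say whether these were single animals, pools or litters, and the p-values measure the spread between these libraries only.

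GAP-43, MARCKS, MARCKSL1 (also MLP or MacMARCKS) and BASP1 (also CAP-23 or NAP-22) are held at the inner face of the plasma membrane by a fatty acid chain and a cluster of basic residues. There they bind the acidic lipid PIP2 and calmodulin, and phosphorylation by protein kinase C weakens the hold of that cluster on its partners. By this route they act on the actin cytoskeleton under the membrane; GAP-43 is known for its expression during axon growth and regrowth, and MARCKS is also made by dividing cells of many tissues. RNA was measured here, not protein, phosphorylation or position in the cell.

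Sequences are shown for Marcksl1 and Basp1, the members for which a RefSeq promoter was at hand. The capitals mark membrane features of these proteins, and no sequence of Gap43 or Marcks was examined for them. The coding sequences are from the GENCODE M21 transcripts on GRCm38, with Marcksl1 on the plus strand of chromosome 4 and Basp1 on the minus strand of chromosome 15. In the first 10 codons, the capitals mark the codon after the start, which is glycine in both and takes the myristoyl chain once the initiator methionine is removed.
Marcksl1, codons 1 to 10: atgGGCagccagagctctaaggctccccgg
Basp1, codons 1 to 10: atgGGAggcaagctgagcaagaagaagaag
The window of 25 codons with the most lysine and arginine codons is shown next, with those codons in capitals. In Marcksl1 the window held 12 basic codons, ran from codon 86 to codon 110 and covered the effector domain, the stretch that protein kinase C phosphorylates and calmodulin binds. In Basp1 it held 10 basic codons and was the first 25 codons themselves, next to the myristoylated end.
Marcksl1, codons 86 to 110: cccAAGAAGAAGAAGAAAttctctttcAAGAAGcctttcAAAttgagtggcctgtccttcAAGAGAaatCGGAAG
Basp1, codons 1 to 25: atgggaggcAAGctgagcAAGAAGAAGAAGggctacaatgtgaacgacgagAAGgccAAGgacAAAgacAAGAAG
Over the whole coding sequence, basic codons made up 22 of 200 in Marcksl1 and 28 of 226 in Basp1, and codons of the acidic residue glutamate 15.0% and 17.7%. The densest window thus held 12 of the 22 basic codons of Marcksl1, near the middle of the protein, and 10 of the 28 of Basp1, at its start.

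The RNA of the 4 genes together took a growing part of the total. In order of age from E12.5, the sum was 0.514% ± 0.0094 of all TPM (SD, n = 2), then 0.521% ± 0.027, 0.650% ± 0.011 and 0.703% ± 0.018, and at birth it was 0.841% ± 0.040. Its make-up shifted: from E12.5 to P0 the part of Gap43 in the sum went from 3.37% to 17.1% and that of Basp1 from 17.2% to 23.6%. The part of Marcks went from 28.2% to 13.5%, and that of Marcksl1, the most abundant of the 4 at every stage, from 51.2% to 45.8%. At E12.5 the order of the means was Marcksl1, Marcks, Basp1 and Gap43. At P0 it was Marcksl1, Basp1, Gap43 and Marcks, and both P0 libraries had that order.

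**Figure D1:**
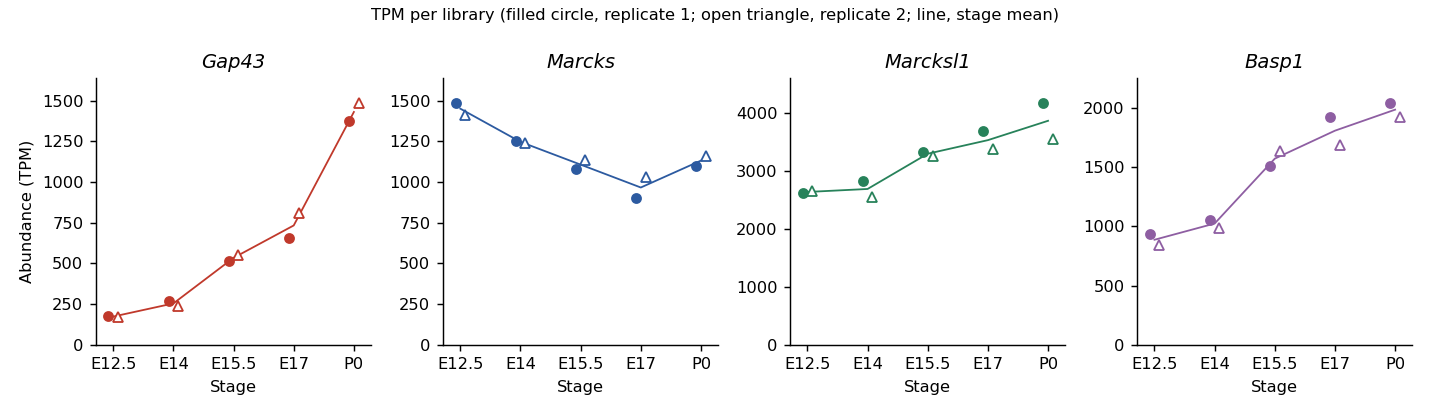
TPM of Gap43, Marcks, Marcksl1 and Basp1 (vertical axes) in each of the 10 libraries at the 5 stages (horizontal axis, equally spaced and not to scale in time), with points for libraries and a line through the stage means. Gap43 climbs at each step from a mean of 173 to a mean of 1431 TPM, Basp1 and Marcksl1 climb less, and Marcks is highest at E12.5.

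Before the members, the tissue itself was checked against marker genes. Of 8 neocortex markers, 6 were listed, and they summed to between 1002 TPM at E12.5 and 1609 TPM at E17. The 7 listed neuron markers summed to between 2378 and 2411 TPM at E12.5 and between 8629 and 9398 TPM at P0, and all 7 rose between these stages. The 6 progenitor markers summed to between 1385 and 1470 TPM at E12.5 and between 195 and 201 TPM at P0, and all 6 fell. Genes of other tissues were highest at E12.5 or E14: 2 embryonic globin genes of 8 erythroid markers summed to between 4318 and 4490 TPM at E12.5, between 1878 and 1973 at E14 and at most 9.12 TPM from E15.5 on, with Hbb-bh1 listed at 0 in both P0 libraries. The 5 meningeal markers summed to 173 TPM in both E12.5 libraries, between 106 and 111 TPM at E14 and at most 6.63 TPM from E15.5 on. For 2 of 5 choroid plexus markers the sum was between 303 and 452 TPM at E12.5, between 1405 and 1517 at E14 and at most 5.26 TPM from E15.5 on, and 2 of 6 vascular markers summed to between 53.4 and 58.7 TPM at E12.5, 4.74 and 5.23 at E15.5, 10.1 and 13.6 at E17, and 5.42 and 6.07 at P0. From E15.5 to E17 both vascular genes rose, Col4a1 from a mean of 3.73 to 9.18 TPM (limma adjusted p = 0.000306) and Cdh5 from 1.26 to 2.69 TPM (limma adjusted p = 0.00867). Of 7 microglial markers only C1qb was listed, and it lay between 4.66 and 8.93 TPM throughout, and of 5 oligodendrocyte lineage markers only Cspg4, at or under 1.40 TPM. Of 4 astrocyte markers 3 were listed, of which Gfap and Aldh1l1 rose from under 1 TPM at E12.5 to 26.6 and 13.8 TPM at P0, and Aldoc fell from 271 to 126. The part that these lists have in the members' changes was not tested, and in whole tissue a larger share of cells of a type cannot be told apart from more RNA per cell. The replicates of E17 stood further apart than those of other stages: the SD over genes of their log2 difference was 0.285, against 0.088 to 0.176 elsewhere.

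Gap43 rose at every step, and more than the other members over the whole period. GAP-43 is an axonal protein of growing neurons and a main substrate of protein kinase C in growth cones. Its gene (ENSMUSG00000047261) lies on the minus strand of chromosome 16, at chr16:42248442-42340651 on GRCm38, and its transcript of 1420 bases has 3 exons, all of them coding. The only annotated gene that overlaps it is Mir6540, on the same strand within an intron.

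Gap43 stood at 178 and 169 TPM in the E12.5 libraries, 269 and 239.8 at E14, 518 and 551 at E15.5, 658 and 809 at E17, and 1373 and 1488 at P0. No 2 neighbouring stages overlapped. Ranked among all listed genes, its mean went from 859 at E12.5 to 56 at P0.

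Between E12.5 and E14 Gap43 rose by 0.55 on the log2(TPM + 1) scale, on which all differences below are given (SE 0.104; limma adjusted p = 0.01). Of the members, 1 of 4 was called higher and 0 lower in this step, against 3.95% of all genes tested called higher and 4.78% called lower. The call was lost with some libraries left out: without E12.5 replicate 1, E12.5 replicate 2 or E14 replicate 1 the change was 0.58, 0.51 or 0.47, with limma adjusted p = 0.0818, 0.112 and 0.127.

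From E14 to E15.5 Gap43 rose 2.10-fold, by 1.07 (SE 0.104; limma adjusted p = 7.54e-06). Here 2 of 4 members were called higher, Gap43 and Basp1, and 0 lower, while 18.4% of all genes were called higher and 33.3% lower. The summed neuron markers also went up in this step, from at most 3330 TPM to at least 6987 TPM, and their part in the Gap43 change was not tested.

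From E15.5 to E17 the Gap43 change was 0.45 (limma adjusted p = 0.0107), and Gap43 was the 1 member of 4 called. In this step 14.4% of all genes were called higher and 10.6% lower. Without E15.5 replicate 1 the limma adjusted p was 0.1, without E15.5 replicate 2 it was 0.0524, and in a fit of these 2 stages alone it was 0.114.

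From E17 to P0 Gap43 rose again, by 0.97 (limma adjusted p = 5.83e-05), and was once more the 1 member of 4 called, against 12.9% of all genes called higher and 28.8% lower. The estimates of its 4 steps were largest for E14 to E15.5 and for E17 to P0, and the difference between steps was not tested.

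Over the whole period Gap43 rose 8.25-fold, by 3.04 (95% confidence interval 2.81 to 3.26; limma adjusted p = 2.4e-10). This placed it at rank 78 by size of rise among the 6048 genes tested. Among the 245 genes averaging 500 TPM or more it came second, after Mapt, which encodes the axonal microtubule protein tau. Of the 4 members, 3 were called higher from E12.5 to P0 (Gap43, Basp1 and Marcksl1) and 1 lower (Marcks). The background was high in both directions: 27.1% of all genes were called higher and 51.0% lower, and 82.9% were called by the F test over the 5 stages, which called all 4 members (limma adjusted p from 1.5e-09 for Gap43 to 0.00297 for Marcksl1).

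**Figure D2:**
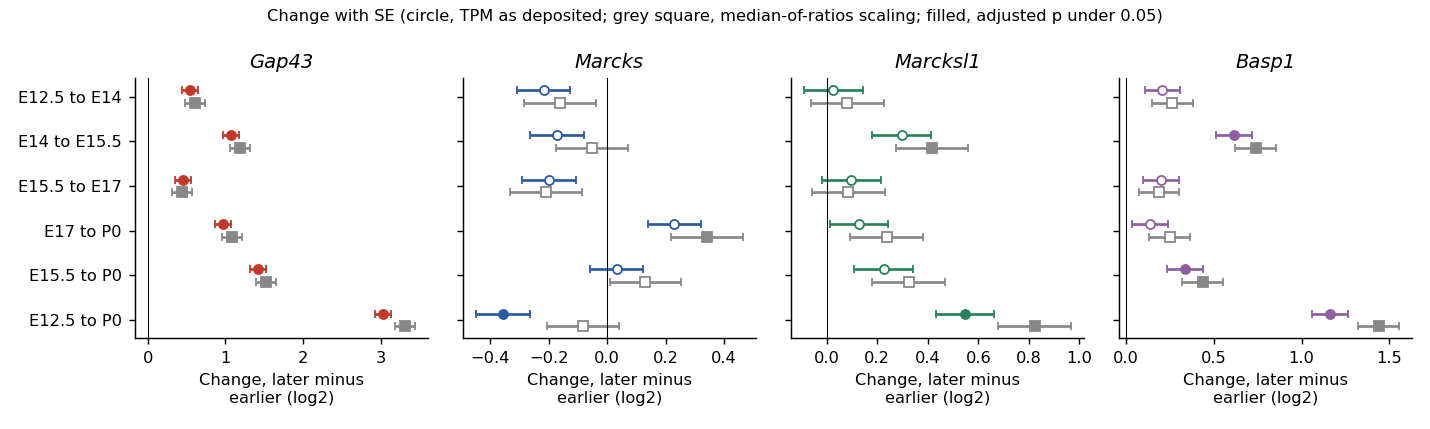
Change in log2(TPM + 1) (horizontal axis) of each member for each comparison of stages, with bars for the SE and filled points for a limma adjusted p under 0.05. Circles are limma estimates from TPM as deposited, and grey squares are those with median-of-ratios scaling. With TPM as deposited, Gap43 is called in every comparison, and the E12.5 to P0 changes run from -0.36 (Marcks) to 3.04 (Gap43).

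**Figure D3:**
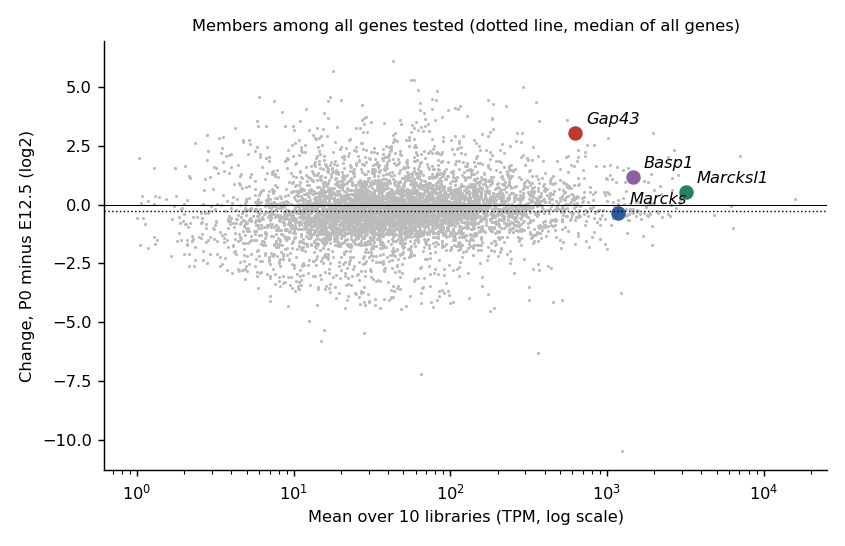
Change in log2(TPM + 1) from E12.5 to P0 (vertical axis) against mean level (horizontal axis, log scale) for the 6048 genes tested, with the 4 members marked. Gap43 lies near the upper edge of the abundant genes, Basp1 and Marcksl1 above the all-gene median of -0.27, and Marcks just below it.

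A second comparison, from E15.5 to P0, begins where the globin, meningeal and choroid plexus genes were already low. Gap43 rose by 1.42 over these stages (limma adjusted p = 1.04e-06) and Basp1 by 0.34 (limma adjusted p = 0.0167). Together they were 2 of 4 members called higher, with 0 called lower, against 19.5% and 30.7% of all genes. The Basp1 call was lost without E15.5 replicate 1 (0.28; limma adjusted p = 0.148) and without P0 replicate 1 (0.29; limma adjusted p = 0.0906). Marcksl1 changed by 0.22 (limma adjusted p = 0.126) and Marcks by 0.03 (limma adjusted p = 0.798), neither of them past the threshold. With the table rescaled to leave out the globin genes, the E12.5 to P0 changes were 3.06 for Gap43, 1.19 for Basp1, 0.57 for Marcksl1 and -0.33 for Marcks.

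Basp1 rose over the whole period and in the step from E14 to E15.5; steps were not tested against one another. BASP1 is a small acidic protein of growth cones and nerve endings that gathers PIP2 at the membrane, and in other cells it also acts in the nucleus as a corepressor. Its gene (ENSMUSG00000045763) lies at chr15:25363277-25413764 on the minus strand (GRCm38). The transcript of 1855 bases has 2 exons, of which 1 is coding and holds the 226 codons.

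Basp1 stood at 933 and 839.6 TPM at E12.5, 1057 and 989 at E14, 1504 and 1637 at E15.5, 1926 and 1688 at E17, and 2043 and 1925 at P0. Each pair of neighbouring stages kept apart except E17 and P0, where the lower P0 library fell just under the higher E17 library. The mean went from rank 119 at E12.5 to rank 27 at P0 among the listed genes.

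The step from E14 to E15.5 was 0.62 (SE 0.102; limma adjusted p = 4e-04). None of the other Basp1 steps passed the threshold: the first step was 0.21 (limma adjusted p = 0.233), the third 0.20 (0.173) and the last 0.14 (0.299). Over the whole period Basp1 rose 2.24-fold, by 1.16 (95% confidence interval 0.94 to 1.39; limma adjusted p = 7.38e-07), which is rank 569 of 6048 by size of rise and rank 31 of the 245 abundant genes.

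The Basp1 promoter is shown because it carries a repeated motif that the Marcksl1 promoter lacks. It is the 250 bases before the RefSeq start on GRCm38.p6, chr15:25413765-25414014, minus strand, with the GC box GGGCGG in capitals.
Basp1 promoter: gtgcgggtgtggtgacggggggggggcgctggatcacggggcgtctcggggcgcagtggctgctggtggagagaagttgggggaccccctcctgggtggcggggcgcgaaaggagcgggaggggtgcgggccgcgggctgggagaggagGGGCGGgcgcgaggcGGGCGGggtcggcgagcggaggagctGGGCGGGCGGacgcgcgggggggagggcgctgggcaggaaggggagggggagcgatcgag
It held 4 GC boxes, of which 2 overlap, between 50 and 95 bases before the start. Both strands were searched, and 32.7% of 32851 RefSeq promoters of the same length held at least 1. The share of promoters with 4 or more was not counted. The Basp1 promoter had a GC content of 78.8% with 30 CpG pairs, higher than in 98.3% and 94.1% of these promoters. No TATA box, spelled TATAAA, was found in it. A CCAAT box and an E-box, spelled CANNTG, were absent too. These 3 motifs were held by 12.4%, 33.8% and 66.2% of all promoters. A match is a description of the letters only.

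Marcksl1 was the most abundant member at every stage and rose by less than Basp1. MARCKSL1 is the small relative of MARCKS, with the same kind of myristoylated end and effector domain and a role in actin bundling and cell movement. Its gene (ENSMUSG00000047945) lies at chr4:129513581-129515985 on the plus strand (GRCm38), with a transcript of 1605 bases in 2 exons.

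Marcksl1 stood at 2611 and 2655 TPM at E12.5, 2816 and 2552 at E14, 3326 and 3257 at E15.5, 3675 and 3375 at E17, and 4171 and 3546 at P0. The E12.5 and E14 libraries overlapped, as did those of E17 and P0, and the P0 pair had the widest gap of any stage. By mean it ranked between 7 and 13 among the listed genes at all 5 stages.

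No single step of Marcksl1 passed the threshold. The nearest was E14 to E15.5, with 0.30 (SE 0.116; limma adjusted p = 0.0506), and 10 of 21 alternative fits called it. The step before it was 0.03 (limma adjusted p = 0.917), and the 2 after it 0.10 (0.563) and 0.13 (0.398). From E12.5 to P0 it rose 1.47-fold, by 0.55 (95% confidence interval 0.29 to 0.80; limma adjusted p = 0.00103), which is rank 1144 of 6048. Under quantile normalization the change was 0.27 and not called (limma adjusted p = 0.0703).

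The Marcksl1 promoter, chr4:129513331-129513580 on the plus strand of GRCm38.p6, is printed for comparison with that of Basp1, and capitals are absent because it held no GC box.
Marcksl1 promoter: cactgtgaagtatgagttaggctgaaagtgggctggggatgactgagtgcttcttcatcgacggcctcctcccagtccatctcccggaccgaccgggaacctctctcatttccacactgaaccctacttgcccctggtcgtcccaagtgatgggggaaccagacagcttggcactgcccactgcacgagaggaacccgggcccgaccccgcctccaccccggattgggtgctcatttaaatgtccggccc
It held 1 CCAAT box, 23 bases before the start, 1 E-box, 101 bases before it, and no TATAAA. Its GC content was 60.4% with 12 CpG pairs, lower than in the Basp1 promoter on both counts. Gap43 and Marcks were not in the RefSeq promoter table used. The Marcksl1 transcript also aligned to transcripts of 3 other genes over at least 100 bases, at 90.2% to 91.2% identity (Akr1c19, Gm9089 and Marcksl1-ps4). None of these was among the listed genes, and whether reads were split between them was not tested. The other members had no such alignment.

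Marcks was the member that fell, by a small amount that depended on the scaling. MARCKS is the founding member of the family, with a myristoylated end and an effector domain that cycle between membrane and cytosol with phosphorylation. Its gene (ENSMUSG00000069662) lies at chr10:37133375-37138920 on the minus strand (GRCm38). The transcript has 2 exons and 4048 bases, of which the 309 codons make up 22.9%.

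Marcks stood at 1489 and 1414 TPM at E12.5, 1255 and 1239.99 at E14, 1078 and 1137 at E15.5, 901 and 1033 at E17, and 1102 and 1163 at P0. Up to E17 each stage lay below the one before it in both libraries, and both P0 libraries lay above both E17 libraries but overlapped those of E15.5. By mean it ranked 56 among the listed genes at E12.5 and 88 at P0, so it stayed abundant throughout.

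No step of Marcks passed the threshold: in order of age the changes were -0.22 (limma adjusted p = 0.168), -0.17 (0.14), -0.20 (0.135) and 0.23 (0.064). From E12.5 to P0 Marcks fell to 0.780 of its first level, a change of -0.36 (95% confidence interval -0.56 to -0.16; limma adjusted p = 0.00376). The median of all genes was -0.27 in the same comparison, so the Marcks change relative to that median was -0.08. With median-of-ratios scaling, which moves the all-gene median to -0.01, the Marcks change was -0.08 and not called (limma adjusted p = 0.561). Gap43, Basp1 and Marcksl1 stood at 3.31, 1.44 and 0.82 relative to the all-gene median.

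The unequal change of the members can be seen without any scaling, in the ratio of 2 members within a library. The members form 6 pairs that share genes, so these ratios are not independent of one another. The background is high, with 82.9% of all genes called by the limma F test over the 5 stages. The share of other gene pairs whose ratio differs between stages was not tested, so the count below does not set the members apart from other genes. Of the 6 pairs, all 6 differed between stages (exact permutation test in which the 10 libraries were put into 5 pairs in every way and the F statistics compared, high values counting as extreme; adjusted p from 0.00317 to 0.01164 over 6 pairs; the smallest raw p that the design allows is 0.00106). Each of the 6 kept its call under each of 12 alternatives, with adjusted p between 0.00212 and 0.0333.

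The pair that moved most was Marcks and Gap43. Marcks TPM were 8.38 and 8.36 times Gap43 TPM in the E12.5 libraries, 4.67 and 5.17 times at E14, 2.08 and 2.06 at E15.5, 1.37 and 1.28 at E17, and 0.802 and 0.781 at P0. By TPM, Marcks was thus the higher in all 8 embryonic libraries and the lower in both P0 libraries. Which gene is higher depends on the gene lengths behind TPM, which are not given. The change of the ratio between stages does not, if each gene has a fixed length. The log2 ratio changed by -3.39 from E12.5 to P0 (exact permutation p = 0.00106, the smallest possible; adjusted p = 0.00317).

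The 2 relatives Marcksl1 and Marcks also parted. Marcksl1 TPM were 1.75 and 1.88 times Marcks TPM at E12.5, 2.24 and 2.06 at E14, 3.09 and 2.86 at E15.5, 4.08 and 3.27 at E17, and 3.79 and 3.05 at P0. Up to E17 no stages overlapped in this ratio, and P0 overlapped both E15.5 and E17 (log2 change from E12.5 to P0 0.90; exact permutation p = 0.01164; adjusted p = 0.01164).

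By TPM, Basp1 passed Marcks between E14 and E15.5, a crossing that also depends on the gene lengths used. Its TPM were 0.627 and 0.594 times those of Marcks at E12.5, 0.843 and 0.798 at E14, 1.40 and 1.44 at E15.5, 2.14 and 1.63 at E17, and 1.85 and 1.66 at P0 (log2 change 1.52; exact permutation p = 0.00529; adjusted p = 0.00794). Against Gap43 the order stayed the same: Basp1 was 5.25 and 4.96 times as high at E12.5 and 1.49 and 1.29 times as high at P0 (log2 change -1.87; exact permutation p = 0.00212; adjusted p = 0.00423). Marcksl1 went from 14.7 and 15.7 times Gap43 at E12.5 to 3.04 and 2.38 times at P0 (log2 change -2.49; exact permutation p = 0.00106; adjusted p = 0.00317). The smallest shift was between Basp1 and Marcksl1, from 0.357 and 0.316 at E12.5 to 0.490 and 0.543 at P0 (log2 change 0.62; exact permutation p = 0.00952; adjusted p = 0.01143).

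**Figure D4:**
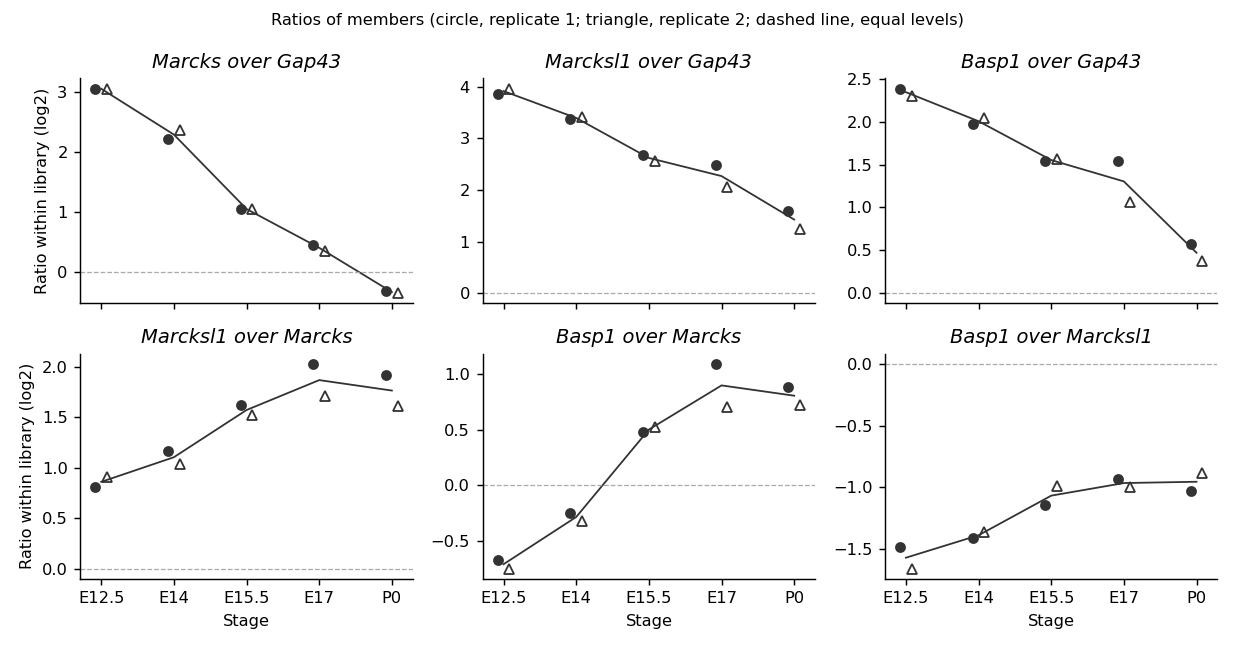
Log2 ratio of the TPM of 2 members within each library (vertical axes) for the 6 pairs, at the 5 stages (horizontal axes, equally spaced and not to scale in time), with 1 point per library. The ratio of Marcks to Gap43 crosses 0 between E17 and P0, and that of Basp1 to Marcks between E14 and E15.5.

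Set against the neuron markers, the members differed from one another in when they gained or lost ground. Gap43 TPM were on average 7.24%, 7.76% and 7.58% of the summed TPM of the 7 neuron markers at the first 3 stages, 9.75% at E17 and 15.9% at P0. The first 3 stages lay between 7.02% and 8.07%, and both P0 libraries (15.8% and 15.9%) stood above both E17 libraries (8.78% and 10.7%). The sum is mostly Dcx, Tubb3 and Stmn2, and single markers differed: from E12.5 to P0, Stmn2 rose by 3.03, Snap25 by 3.04 and Nefl by 3.68, against 3.04 for Gap43, while Tubb3 rose by 1.55 and Dcx by 0.98.

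Marcks went the other way, from 60.6% of the neuron marker sum at E12.5 to 38.1% and 15.7% at the next 2 stages and 12.6% at P0. In order of age, Marcksl1 was at 109.95%, 81.9%, 46.7%, 46.9% and 43.0% of that sum, and Basp1 at 37.0%, 31.2%, 22.3%, 24.0% and 22.1%. All 3 lost ground up to E15.5, and their means moved by fewer percentage points after it. These shares are descriptions, and which cells held the RNA was not measured.

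Over the 10 libraries, Gap43, Basp1 and Marcksl1 followed one another closely on log2(TPM + 1). Pearson's r was 0.958 between Gap43 and Basp1, 0.957 between Marcksl1 and Basp1, and 0.929 between Gap43 and Marcksl1. With TPM as deposited, Marcks ran against them, with r of -0.71 to Gap43, -0.77 to Marcksl1 and -0.83 to Basp1. In the step from E17 to P0 the Marcks estimate was positive like theirs (0.23, not called). These r were not computed under another scaling. The libraries share 5 stages of age, which order most genes, so such values are common and are given as descriptions.

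Among the 5429 genes averaging 10 TPM or more, 419 had an r above 0.95 to Gap43, 518 to Basp1, 170 to Marcksl1 and 25 to Marcks. Marcksl1 and Marcks also had the smallest changes of the members from E12.5 to P0 (0.55 and -0.36). A small change beside the spread of replicates limits how high r can be, and its part in these counts was not tested. Nearest to Gap43 were Eno2 (r = 0.996), the neuronal form of the glycolytic enzyme enolase, Vsnl1 (0.9959), a neuronal calcium sensor, Snap91 (0.9955), a clathrin adaptor of synaptic vesicles, Pmm1 (0.9952) and Pkia (0.9951), an inhibitor of protein kinase A. Of these Pkia was the most abundant, with 1082 TPM at the first stage and 5363 at the last.

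Nearest to Basp1 were Nsg1 (r = 0.9961), a neuronal endosome protein that went from 562 to 1716 TPM, Fam110b (0.9927), Prkcz (0.9926), Lonrf2 (0.992) and Thra (0.9919), a thyroid hormone receptor. Nearest to Marcksl1 were Rcan1 (r = 0.9897), a regulator of calcineurin, Rab35 (0.9865), a small GTPase of endosomes, Cxx1b (0.983), BC037034 (0.9827) and Slc25a1 (0.9825), the mitochondrial citrate carrier. Nearest to Marcks were Dld (r = 0.9775), a subunit of mitochondrial dehydrogenases, Morf4l1 (0.9761), a chromatin protein, Pitpnb (0.9755), a phosphatidylinositol transfer protein, Dars (0.9753), an aminoacyl-tRNA synthetase, and Samm50 (0.9684), of the mitochondrial outer membrane. All 5 had small changes from E12.5 to P0, between -0.41 and -0.20.

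The known partners of these proteins were described next from 5 lists of 45 genes, of which 35 were in the table. From E12.5 to P0, 16 of the 35 were called higher and 11 lower, against 27.1% and 51.0% of all genes. The median of the 35 changes was 0.15, against -0.27 over all genes tested. With median-of-ratios scaling the split was 21 higher and 7 lower, against 37.9% of all genes called higher and 37.7% lower under that scaling.

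Protein kinase C, which phosphorylates GAP-43, MARCKS and MARCKSL1 in their basic stretches, moved by isoform. Of 7 listed genes 5 rose and 1 fell, with a median of 1.71, beside 27.1% of all genes called higher and 51.0% lower. Prkce went from 28.1 and 27.6 TPM in the E12.5 libraries to 181 and 204 at P0, a rise of 2.74 (limma adjusted p = 1.42e-10), and the atypical isoform Prkcz from 17.9 and 17.6 to 110.3 and 107 TPM, a rise of 2.55 (limma adjusted p = 3.51e-10). Both of these genes rose at each of the 4 steps, as Gap43 did.

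The calcium-dependent isoforms differed in timing. Prkcb stood at 11.4 and 12.0 TPM at E12.5, at 9.64 and 8.85 TPM at E15.5, and at 49.3 and 65.3 TPM at P0 (E12.5 to P0 2.18; limma adjusted p = 3.26e-08). Prkca went from 10.2 and 10.5 TPM at E12.5 to 38.7 and 33.2 at E17 and 27.2 and 31.5 at P0 (1.41; limma adjusted p = 2.44e-07). Prkci, the other atypical isoform, fell from 56.6 and 56.7 to 29.97 and 39.0 TPM (-0.71; limma adjusted p = 9.75e-05), and Prkcd stood at 12.1 and 13.5 and at 11.4 and 11.7 TPM (-0.14; limma adjusted p = 0.347).

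Calcineurin is the calcium-dependent phosphatase that removes phosphate from GAP-43. All 3 calcineurin genes in the table rose, with a median of 1.22, beside 27.1% of all genes called higher. The catalytic subunit gene Ppp3ca went from 76.7 to 261 TPM (1.75; limma adjusted p = 1.37e-09) and the regulatory subunit gene Ppp3r1 from 288 to 602 TPM (1.06; limma adjusted p = 3e-07).

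Enzymes that make and break PIP2, the lipid these proteins bind, went both ways. Of 11 listed genes 5 rose and 1 fell, with a median of 0.15, beside 27.1% of all genes called higher and 51.0% lower. With median-of-ratios scaling 8 were called higher and 1 lower, beside 37.9% and 37.7% of all genes. Synj1, a PIP2 phosphatase of nerve endings, rose from 8.71 to 27.0 TPM (1.53; limma adjusted p = 9.68e-07), and Pip5k1c, a kinase that makes PIP2, from 83.3 to 205 TPM (1.29; limma adjusted p = 1.62e-06). The gene that fell was Plcb3, a phospholipase, from 10.6 to 5.07 TPM (-0.94; limma adjusted p = 2.24e-05).

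The enzymes of acylation attach and remove the fatty acids that hold the members at the membrane. Of 9 listed genes 2 rose and 5 fell, beside 27.1% of all genes called higher and 51.0% lower. Their median was -0.27, the same as over all genes. With median-of-ratios scaling 4 were called higher and 2 lower, beside 37.9% and 37.7% of all genes. The 2 N-myristoyltransferase genes parted: Nmt2 rose from 62.7 to 88.8 TPM (0.49; limma adjusted p = 6.9e-05) and Nmt1 fell from 73.0 to 60.2 TPM (-0.27; limma adjusted p = 0.0192). Lypla1 and Ppt1, thioesterase genes that act on palmitoylated proteins, fell by 1.08 and 1.09 on the log2 scale, to 39.9 and 33.0 TPM at P0 (limma adjusted p = 3.82e-06 and 4.5e-06). Another thioesterase gene of the list, Lypla2, did not fall (0.13, limma adjusted p = 0.296). It was called higher with median-of-ratios scaling (0.405, limma adjusted p = 0.0024). Zdhhc3, a palmitoyltransferase, fell from 166 to 124 TPM (-0.42, limma adjusted p = 0.000455). With median-of-ratios scaling neither Nmt1 (-0.001; limma adjusted p = 0.995) nor Zdhhc3 (-0.15; limma adjusted p = 0.0989) was called. The Nmt1 call was lost in 4 of 21 alternatives in all, among them quantile normalization (-0.11) and the fits without E12.5 replicate 2 or P0 replicate 1. The second gene that rose, Zdhhc17 (0.28; limma adjusted p = 0.0378), lost its call without any 1 of the E12.5, E15.5 or P0 libraries.

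Of the 5 RNA-binding proteins reported on Gap43 mRNA, or related to those, 1 rose and 4 fell, with a median of -0.63. Over all genes 27.1% were called higher and 51.0% lower. With median-of-ratios scaling 1 was called higher and 3 lower, beside 37.9% and 37.7% of all genes. The median was then -0.36, and Elavl2 was not called (-0.29; limma adjusted p = 0.0697). Elavl3, a neuronal member of the Hu family, rose from 280.2 to 727 TPM (1.37; limma adjusted p = 8.79e-07). Elavl4, which encodes HuD, the protein known to stabilise Gap43 mRNA, fell from 183 to 119 TPM (-0.63; limma adjusted p = 0.000237), while Gap43 rose. It was called lower under all 21 alternatives, with -0.36 under median-of-ratios scaling. Khsrp, another gene of this list, fell from 86.5 to 38.2 TPM (-1.16, limma adjusted p = 6.49e-06). Khsrp was also called under all 21 alternatives, with -0.89 under median-of-ratios scaling. The part of these genes in the Gap43 change was not tested. Igf2bp1, which encodes the mRNA transport protein ZBP1, fell from 94.0 to 6.55 TPM (-3.66; limma adjusted p = 2.81e-09), the largest fall in these lists.

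**Figure D5:**
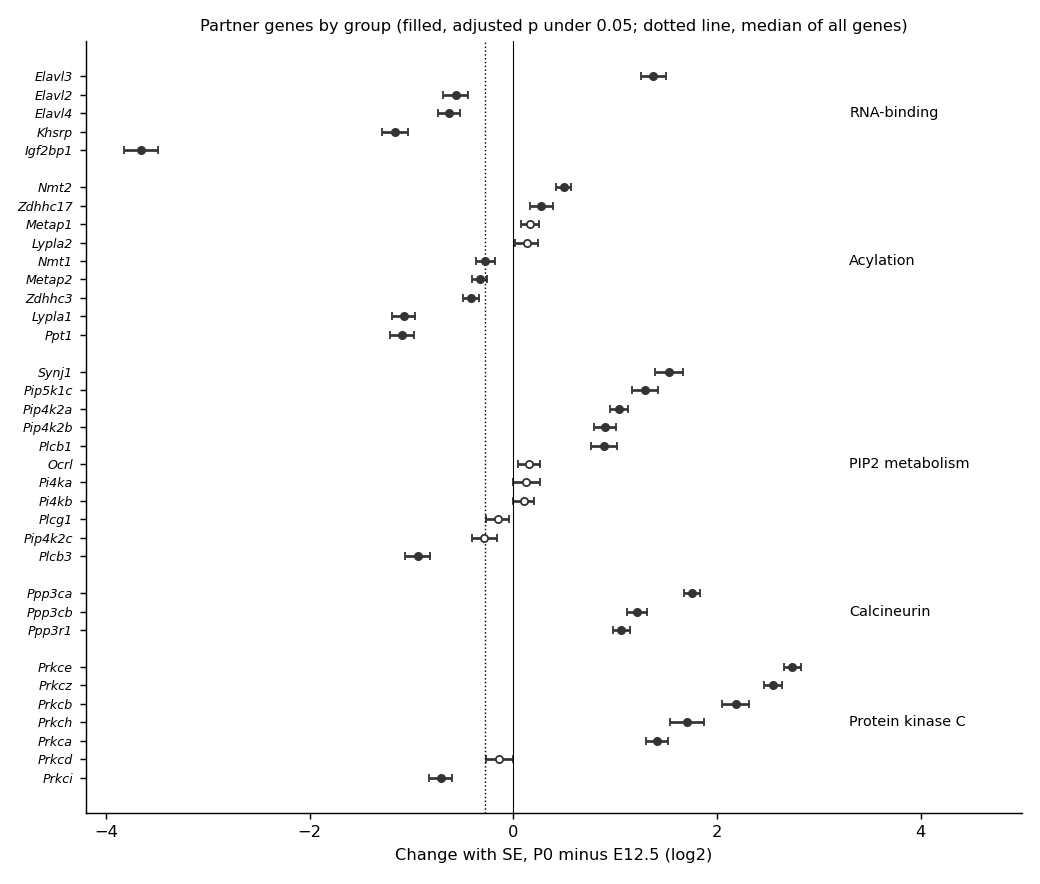
Change in log2(TPM + 1) from E12.5 to P0 (horizontal axis) of the 35 partner genes in the table, grouped by list, with bars for the SE, filled points for a limma adjusted p under 0.05 and a line at the median of all genes tested. All calcineurin genes and most protein kinase C genes lie to the right of that line, and 4 of the 5 RNA-binding protein genes to its left.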

How the data were processed

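The authors deposited TPM per gene for 6147 genes, 1 column per library, per the file headers. The submitters' processing notes name STAR, Subread and GRCm38.p5. Per the labels' protocols, frozen tissue was lysed with detergent, the lysate cleared by centrifugation, RNA extracted with TRIzol LS and libraries made with the TruSeq Stranded mRNA kit. For the annotation, the gene lengths, the choice of rows and the reads per library, nothing is given in the sources used here. Listed genes summed to between 68.9% and 71.7% of the full TPM total of a library. Columns were matched to libraries by title and 0 value columns were left over.

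The scale was log2(TPM + 1), and 99 genes averaging under 1 TPM were left out. limma 3.58.1 (R 4.3.3) fitted 1 mean per stage over 10 libraries (5 residual degrees of freedom, variance trend), with Benjamini-Hochberg adjustment over 6048 genes and calls under 0.05. A fold change on this scale understates the change of low genes. The median SE over all genes was 0.107. The fit and the exact permutation test were tested on simulated data. Tables and figures were made with pandas 2.3.3, numpy 2.4.6, Python 3.11.15 and matplotlib 3.10.9, and blastn 2.17.0 compared transcripts. Positions are from GENCODE M21, chosen here.

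The members, the partner and marker lists and the tests were chosen with earlier results of these data known. Genes named beside the members were the 5 with the highest r to each, after the filter on level and name, and from each list the highest and lowest change and members discussed. Some genes and 1 list are not reported here. The alternatives tried were no filter, pseudocounts of 0.1 and 10 TPM, a minimum of 5 TPM, median-of-ratios scaling, quantile normalization, rescaling without globins, no variance trend, array weights, the replicate block, a fit of only the 2 stages compared, and leaving out each library; their use on the partner counts was added after seeing the data.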

Additional observations from a re-analysis of the deposited data

How the results depend on the processing

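The E12.5 to P0 changes of Gap43 (2.97 to 3.31) and Basp1 (1.09 to 1.44) kept their call under all 21 alternatives. That of Marcks was lost with median-of-ratios scaling (-0.082) and that of Marcksl1 with quantile normalization (0.27), which turned the E17 to P0 change of Marcksl1 to -0.15. Median-of-ratios scaling brought calls for Marcksl1 from E14 to E15.5 (0.42) and Marcks from E17 to P0 (0.34), and quantile normalization for Marcks from E12.5 to E14 (-0.26). For Marcksl1 from E14 to E15.5, a pseudocount of 0.1 TPM, a minimum of 5 TPM and no variance trend also brought a call (0.30 each). Array weights, and a fit of only the 2 stages compared, brought calls with the estimate kept: from E12.5 to E14 Marcks (-0.22) and Basp1 (0.21), from E14 to E15.5 Marcks (-0.17) and Marcksl1 (0.30), and from E15.5 to P0 Marcksl1 (0.22). The fit of 2 stages lost the Gap43 call from E15.5 to E17 (0.45). The cause of these shifts was not tested.

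Leaving out 1 library at a time changed the call, or the sign of an uncalled change (Marcksl1 from E12.5 to E14 and Marcks from E15.5 to P0), for the results below, given with their lowest and highest change; the lone library of a stage is then assumed to vary like the others. From E12.5 to E14 the range was 0.47 to 0.63 for Gap43, -0.26 to -0.18 for Marcks, -0.045 to 0.10 for Marcksl1 (below 0 without E14 replicate 1) and 0.13 to 0.28 for Basp1. From E14 to E15.5 it was -0.21 to -0.13 for Marcks and 0.23 to 0.37 for Marcksl1. From E15.5 to E17 it was 0.30 to 0.60 for Gap43, -0.30 to -0.10 for Marcks and 0.11 to 0.29 for Basp1, and from E17 to P0 0.13 to 0.33 for Marcks and 0.042 to 0.23 for Basp1. From E15.5 to P0 it was -0.007 to 0.07 for Marcks (below 0 without E15.5 replicate 1 or P0 replicate 2), 0.11 to 0.34 for Marcksl1 and 0.28 to 0.40 for Basp1.

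The number of genes called from E12.5 to E14 was 528, but 901 with quantile normalization, 2411 with array weights, 2479 from the 2 stages alone and 65 to 1770 without 1 library. From E15.5 to E17 it was 1514, but 758, 91 and 466 to 3164 with array weights, 2 stages and 1 library left out. From E17 to P0 it was 2525, but 1145, 1110 and 1640 to 3768. The share of calls that were higher was 34.7% from E12.5 to P0, but 50.1% with median-of-ratios scaling and 47.8% with quantile normalization. From E14 to E15.5 it was 35.6%, against 50.2% and 49.0%, from E17 to P0 30.9%, against 48.4% and 51.4%, from E15.5 to P0 38.8%, against 52.1% and 49.4%, and from E12.5 to E14 45.3%, against 58.7% with median-of-ratios scaling, 30.8% with a pseudocount of 10 TPM, 35.0% with array weights, 34.1% from the 2 stages alone and 79.4% to 86.2% without an E12.5 or E14 library. From E15.5 to E17 it was 57.5%, against 78.0% from the 2 stages alone and 41.0% without E17 replicate 1, and from E17 to P0 41.5% without E17 replicate 1.

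Same-numbered libraries did not deviate together in the same direction. The correlation of their deviations from the stage means was between -0.38 and 0.107 over 10 pairs of stages, 1 of them over 0.1. Whether libraries of different stages shared a batch or litter was not tested. With the replicate block the E12.5 to P0 changes were 3.04 for Gap43, 1.16 for Basp1, 0.55 for Marcksl1 and -0.36 for Marcks, and 4676 genes were called against 4728. With 2 libraries per stage and no read counts, steps of about 0.2 such as those of Marcks were at the limit of what could be called.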

Other observations

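Between E15.5 and P0, the window in which the globin, meningeal and choroid plexus genes were low at both ends, Prkcb, Prkch and Igf2bp1 changed by more than any member did; the genes given here were picked after their values were seen. Prkcb rose by 2.49 on the log2(TPM + 1) scale (limma adjusted p = 1.24e-07). Prkch, which encodes another isoform of protein kinase C, went from 1.14 and 1.31 TPM to 9.94 and 12.6 TPM, a rise of 2.45 (limma adjusted p = 6.52e-07). Igf2bp1 went from 27.8 and 26.3 TPM to 7.07 and 6.03 TPM, a change of -1.90 (limma adjusted p = 4.41e-06), and Elavl4 changed by -0.47 (limma adjusted p = 0.00435). In the same window Prkce rose by 0.81 (limma adjusted p = 1.85e-05) and Prkca, at 25.1 and 25.9 TPM and then 27.2 and 31.5 TPM, was not called (0.19; limma adjusted p = 0.162).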
